A study of Mus musculus with 4 samples.

Results

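Innate immune sensors of macrophages were followed through 4 droplet single-cell libraries of cells sorted from mouse tumours. The set was given by name: the Toll-like receptors Tlr2, Tlr4, Tlr7, Tlr9 and Tlr13, their adaptor Myd88, the co-receptor Cd14, and the C-type lectin receptors Clec4e and Clec7a. The files hold 31053 features, and 8 of the 9 listed genes were analysed. Clec7a, which encodes Dectin-1, is not analysed here, and GENCODE vM21 classes it as a polymorphic pseudogene on mm10.

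Toll-like receptors bind conserved microbial or damage-derived molecules. Tlr2 and Tlr4 sit at the cell surface, where CD14 hands lipids and lipopolysaccharide to them, while Tlr7, Tlr9 and Tlr13 sit in endosomes and read nucleic acids. All 5 recruit the adaptor MyD88, whose kinases activate NF-kB and interferon regulatory factors. Clec4e encodes Mincle, which signals through the Fc receptor gamma chain, Syk and Card9 after binding microbial glycolipids or material from dead cells. In macrophages these routes lead to cytokine and chemokine transcription.

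The cells came from subcutaneous tumours of TC-1, a mouse lung epithelial tumour line, in wild-type C57/bl6 mice. One library was made from each of 4 groups: PBS, and days 1, 3 and 7 after a single intraperitoneal cisplatin dose of 6 mg/kg. All mice carried the same tumour, seeded with 300000 cells and treated at 40 mm², and nothing says how many mice a library pools. The PBS library has no stated day, and one of its labels calls it untreated. The sort took CD45+, lin-, CD90+ and CD127+ cells, a gate for innate lymphoid cells, and 15000 cells were loaded per library.

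The PBS, day 1, day 3 and day 7 libraries held 59915831, 82493626, 36587207 and 16153484 unique molecular identifiers (UMIs, counted molecules). After filtering, 7425, 6841, 4715 and 2705 cells remained, with median depths of 6162, 8769, 6045 and 5039 UMIs. Between 3 and 19 barcodes were shared by any 2 libraries among kept cells. Against the sort label, macrophage transcripts prevailed. Cells with at least 1% of their UMIs from 9 macrophage markers and at most 1 UMI from 7 lymphoid genes, called macrophage-gated below, made up 86.6%, 75.8%, 64.2% and 80.5% of kept cells. Summed over the macrophage markers, the level was 35669, 40148, 27023 and 41514 CPM (UMIs scaled to the same total in every library or gate), with no marker at 0. With 1 library per group there is no replicate check and no test. Intervals are 95% and cover counting error only. The effects of cisplatin, of time and of the single library behind each group cannot be told apart.

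Promoters of 4 sensors that were called on day 3 are shown, because each of these members carries a different motif upstream of its start. The windows are the 250 bases before the RefSeq start on GRCm38.p6, cut back to the stretch outside annotated exons, and read 5′ to 3′ on the gene's strand. Capitals mark letters that match a motif searched on both strands.
Tlr2: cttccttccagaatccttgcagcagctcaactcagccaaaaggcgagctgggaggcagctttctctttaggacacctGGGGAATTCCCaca
Myd88: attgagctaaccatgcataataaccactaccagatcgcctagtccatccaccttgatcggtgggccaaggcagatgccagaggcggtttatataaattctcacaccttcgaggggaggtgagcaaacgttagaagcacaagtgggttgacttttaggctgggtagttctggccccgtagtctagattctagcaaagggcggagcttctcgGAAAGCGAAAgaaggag
Clec4e: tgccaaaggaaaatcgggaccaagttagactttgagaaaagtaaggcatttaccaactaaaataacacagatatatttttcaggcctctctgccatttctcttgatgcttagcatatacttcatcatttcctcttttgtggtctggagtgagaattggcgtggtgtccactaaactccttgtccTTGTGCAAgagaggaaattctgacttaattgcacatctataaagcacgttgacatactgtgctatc
Tlr9: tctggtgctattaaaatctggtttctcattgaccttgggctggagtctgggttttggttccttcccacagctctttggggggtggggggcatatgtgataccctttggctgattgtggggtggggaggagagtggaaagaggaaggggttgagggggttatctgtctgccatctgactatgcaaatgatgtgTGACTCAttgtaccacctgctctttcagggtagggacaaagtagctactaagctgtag

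The Tlr2 stretch lies at chr3:83841768-83841858 on the minus strand, and its capitals are a pair of overlapping kappaB motifs between 173 and 163 bases before the start. The Myd88 stretch lies at chr9:119340042-119340268 on the minus strand. It holds an interferon-stimulated response element, read on the opposite strand to the search pattern, at 40 to 31 bases before the start. That stretch lies inside the GENCODE extent of Myd88 given below, which begins further upstream than the RefSeq start. The Clec4e stretch lies at chr6:123289872-123290121 on the minus strand. It holds a C/EBP motif (TTGCNNAA), likewise read on the opposite strand to the search pattern, at 66 to 59 bases before the start. The Tlr9 stretch, at chr9:106222348-106222597 on the plus strand, holds an AP-1 motif (TGANTCA) at 58 to 52 bases before the start. No match to the PU.1 motif AGGAAGT was found in these windows. Among 27025 mouse promoter windows of the same length, 3.75% hold the kappaB motif, 3.04% the interferon element, 9.55% the C/EBP motif, 6.87% the AP-1 motif and 7.8% the PU.1 motif. A match describes letters only. RefSeq windows were read for 6 of the 9 listed genes, Tlr13 and Clec7a among them without a match. No window was found for Tlr4 and Tlr7, and Cd14 was left out, so these genes are named only.

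The genes lie on mm10 at chr3:83836272-83841767 (Tlr2), chr4:66827584-66930284 (Tlr4), chrX:167304929-167330558 (Tlr7), chr9:106222598-106226883 (Tlr9), chrX:106143204-106160493 (Tlr13), chr9:119335934-119341411 (Myd88), chr18:36725067-36726798 (Cd14) and chr6:123281789-123289870 (Clec4e). All are protein coding. The whole annotated extent of Myd88, 5478 bases, lies inside that of Slc22a14 on the same strand, and 1736 bases overlap Acaa1a on the opposite strand. How shared reads were assigned is not given in the sources used here, so the Myd88 values are uncertain to that extent. The other 7 analysed genes overlap no annotated gene.

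Day 3 after cisplatin had the highest level of Clec4e, Cd14, Tlr2, Tlr7, Tlr9 and Myd88, and day 1 that of Tlr4 and Tlr13. On day 3 in macrophage-gated cells, Clec4e was 2.88-fold, Cd14 1.82-fold, Tlr2 1.65-fold, Myd88 1.57-fold and Tlr9 4.13-fold its PBS level. On day 7 only Cd14 remained past 1.5-fold in these cells.

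**Figure D1:**
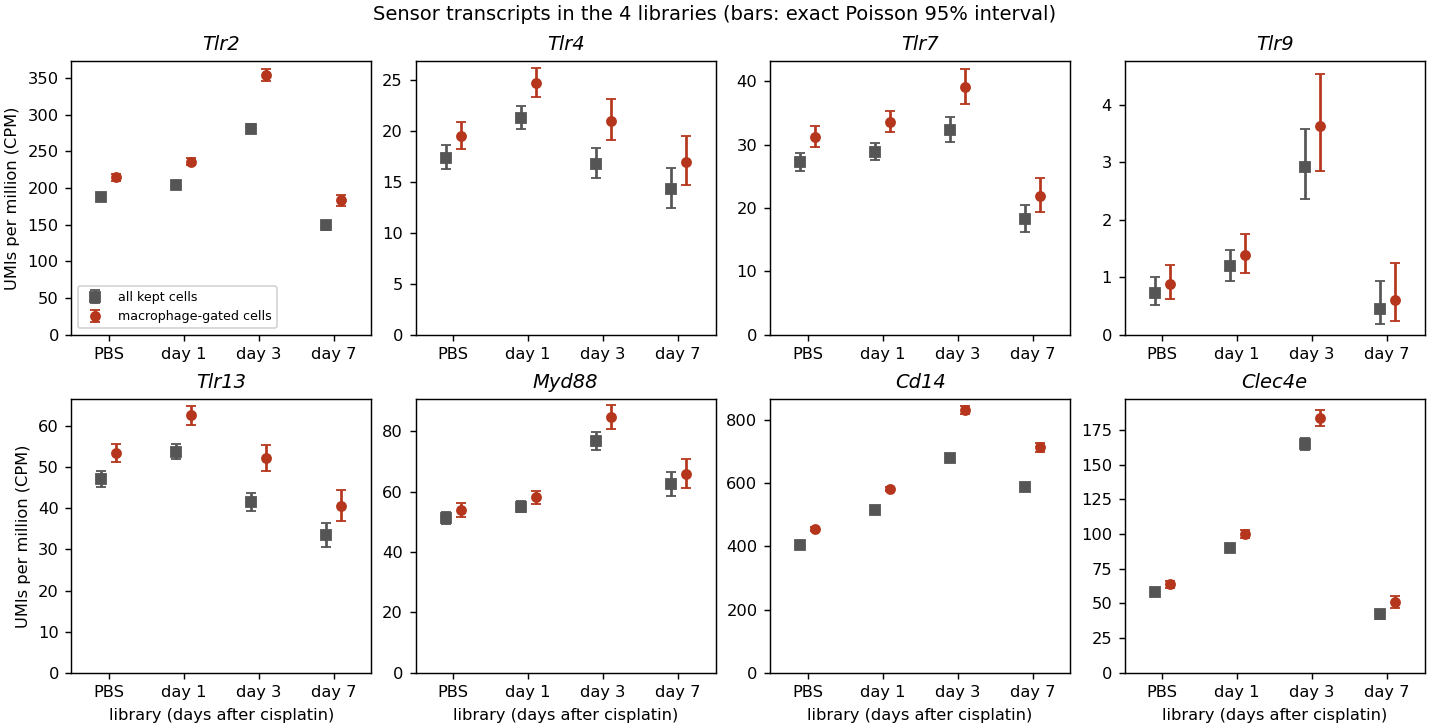
Summed level of each analysed sensor gene in CPM (y axis from 0) in the PBS library and on days 1, 3 and 7 after cisplatin (x axis), in all kept cells (grey squares) and in macrophage-gated cells (red circles), with exact Poisson 95% intervals. Clec4e in macrophage-gated cells stands at 184 CPM on day 3 and 50.9 CPM on day 7, against 63.8 CPM under PBS.

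Among surface sensors, Tlr2, the receptor for bacterial lipoproteins, had 215 CPM in macrophage-gated cells of the PBS library, and 236, 354 and 183 CPM on days 1, 3 and 7. Day 3 stood apart, and its log2 ratio to PBS was 0.72 (0.68 to 0.77). Tlr2 in all kept cells had 188, 205, 281 and 149 CPM, and its day 3 ratio there was 1.498-fold, just under the 1.5-fold limit. A gene was called higher or lower when it passed 1.5-fold, its interval left out equality, and the 2 libraries held at least 20 UMIs of it.

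Cd14, the lipopolysaccharide co-receptor, had 456, 582, 832 and 714 CPM in macrophage-gated cells. All 3 cisplatin libraries lay above the PBS library, and no intervals overlapped. The log2 ratios to PBS were 0.35 on day 1, 0.87 on day 3 and 0.65 on day 7, of which the last 2 passed 1.5-fold. In all kept cells the day 7 ratio of Cd14 was 1.46-fold and did not pass.

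Tlr4, the lipopolysaccharide receptor, had 19.5, 24.7, 21.0 and 16.9 CPM in macrophage-gated cells. Its ratio to PBS was largest on day 1, at 1.27-fold (1.16 to 1.39), and passed the limit on no day.

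Among endosomal sensors, Tlr7, a receptor for single-stranded RNA, had 31.3, 33.6, 39.1 and 21.9 CPM in macrophage-gated cells, lowest on day 7. Its day 7 ratio to PBS was 0.70-fold in these cells and 0.67-fold (0.59 to 0.76) in all kept cells, which does not reach the limit. Tlr13, which in mice reads bacterial ribosomal RNA, had 53.5, 62.6, 52.2 and 40.6 CPM. Its ratios to PBS ran between 0.76-fold on day 7 and 1.17-fold on day 1 and none passed.

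Tlr9, the receptor for unmethylated CpG DNA, was rare. All kept cells held 37 UMIs of it in the PBS library, 79 on day 1, 94 on day 3 and 7 on day 7, which is 0.728, 1.19, 2.93 and 0.455 CPM. The day 3 level stood above the other 3 intervals. It was called higher on day 1 at 1.63-fold (1.09 to 2.48) and on day 3 at 4.02-fold (2.72 to 6.05). On day 7 its interval of 0.235 to 1.42-fold left no direction detectable at this depth.

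Myd88 had 53.9, 58.1, 84.6 and 65.9 CPM in macrophage-gated cells and was highest on day 3, at 1.57-fold its PBS level (1.47 to 1.67). In all kept cells it had 51.2, 55.0, 76.7 and 62.3 CPM, and day 3 was 1.499-fold, again just under the limit.

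Clec4e had 63.8, 100.01, 184 and 50.9 CPM in macrophage-gated cells. Days 1 and 3 lay above PBS and day 7 below it, and no intervals overlapped. The log2 ratios were 0.65 (0.58 to 0.72) on day 1, 1.53 (1.46 to 1.60) on day 3 and -0.33 (-0.46 to -0.20) on day 7, and the first 2 passed 1.5-fold. After every cell was thinned to 2000 UMIs, 9.82%, 14.0%, 21.6% and 8.46% of macrophage-gated cells held a Clec4e UMI, and those cells held on average 1.32, 1.60, 1.80 and 1.35 of them. Both the share of positive cells and the UMIs per positive cell were therefore highest on day 3. Thinning left out 339, 379, 284 and 298 shallower cells, and the unthinned shares were 21.7%, 31.3%, 36.5% and 16.0%.

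Counted over the set in all kept cells, 2 of 8 members were higher on day 1, 3 of 8 on day 3 and 0 of 8 on day 7, and none was lower on any day. Of all genes tested, 17.1% were higher and 3.84% lower on day 1, 18.9% and 15.3% on day 3, and 19.9% and 12.0% on day 7. In macrophage-gated cells 2, 5 and 1 of the 8 were higher and none lower. The background there was 12.3%, 15.0% and 11.9% higher, and 4.61%, 16.2% and 16.5% lower. Other scalings ended the day 1 calls in macrophage-gated cells, with 0 of 8 members higher under TMM factors (9.81% of all genes higher, 6.27% lower) and 0 of 8 under median-ratio factors (10.1% and 6.00%). In all kept cells 0 of 8 were higher on day 1 under median-ratio factors (13.3% and 6.06%), and on day 7 TMM factors gave 2 of 8 lower (17.3% and 16.3%). The members' median log2 ratio in macrophage-gated cells was 0.28 on day 1, 0.69 on day 3 and -0.28 on day 7, beside 0.10, -0.07 and -0.13 over all genes tested. The 3 comparisons share the PBS library, so a high or low PBS value enters each of them.

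**Figure D2:**
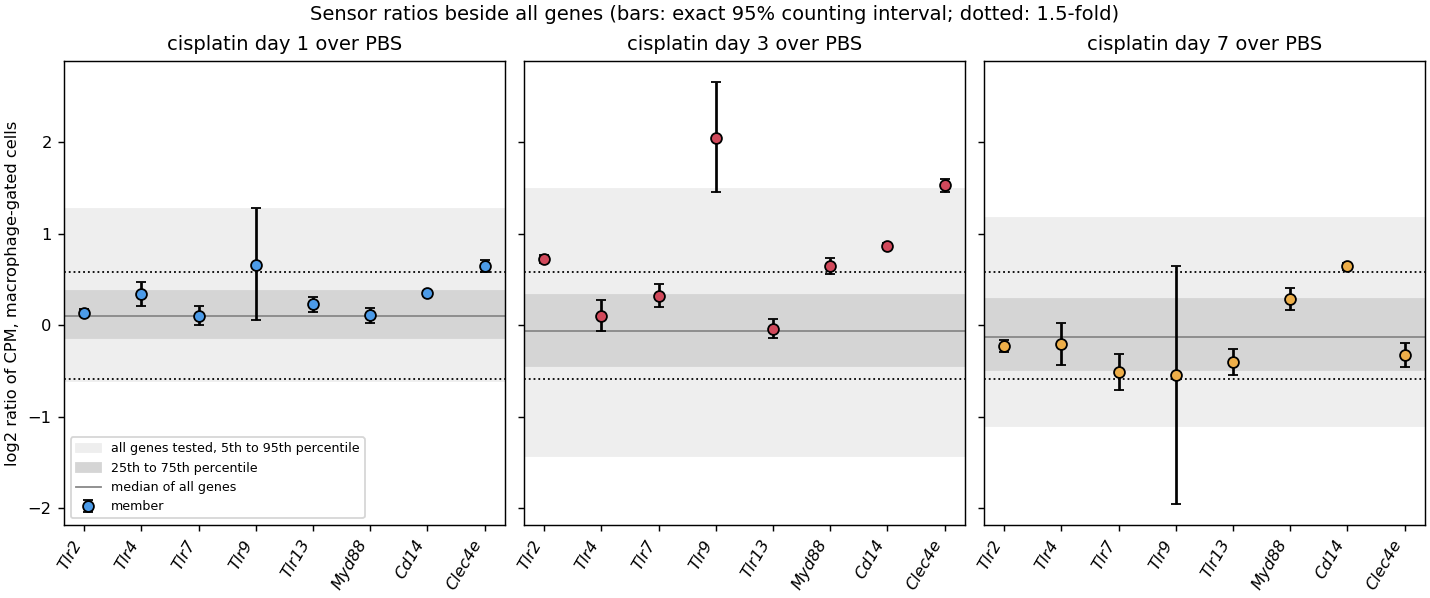
Log2 ratio of CPM to PBS (y axis) of each sensor gene in macrophage-gated cells on days 1, 3 and 7 after cisplatin (left to right), with exact 95% counting intervals, over bands holding the 5th to 95th and 25th to 75th percentile of all genes tested and their median. Dotted lines mark 1.5-fold, which Clec4e and Tlr9 pass on day 1, these 2 with Tlr2, Myd88 and Cd14 on day 3, and Cd14 on day 7.

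The mix of myeloid cells also differed between libraries. Gates of marker UMIs, 5 in number, were set within macrophage-gated cells, each at 3 or more UMIs and at least 5 per 10000, and a cell in several gates was counted apart. Cells with the monocyte genes Ly6c2 and Plac8 numbered 16, 41, 471 and 27, and cells with Cx3cr1, Fcrls and Hpgd numbered 4733, 2693, 413 and 1342. The Arg1 Cxcl3 gate held 67, 152, 80 and 23 cells, the Nos2 Acod1 gate 5, 27, 69 and 1, and the Cd163 Folr2 gate, named for resident macrophage genes, 30, 79, 96 and 11. No subset gate was passed by 895, 1623, 1691 and 608 cells. Only units of at least 20 cells are described.

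Clec4e separated the gates widely. On day 1 it had 543 CPM in Nos2 Acod1 cells, 493 in Ly6c2 Plac8 cells and 288 in Arg1 Cxcl3 cells, against 74.3 in Cd163 Folr2 and 63.2 in Cx3cr1 Fcrls Hpgd cells. On day 3 the same gates had 371, 325, 313, 62.3 and 83.3 CPM. The Nos2 Acod1 level on day 1 was 8.59-fold that of Cx3cr1 Fcrls Hpgd cells, and the first 3 gates stood apart from the last 2 on both days. In the PBS library Arg1 Cxcl3 cells had 177 CPM and Cx3cr1 Fcrls Hpgd cells 57.3 CPM, and on day 7 Ly6c2 Plac8 cells had 185 CPM and Cx3cr1 Fcrls Hpgd cells 36.7 CPM. Ly6c2 Plac8 cells held 3.14% of all Clec4e UMIs of macrophage-gated cells on day 1, when they were 0.791% of those cells, and 24.4% on day 3, when they were 15.6% of them.

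Cd14 was highest in Arg1 Cxcl3 or Nos2 Acod1 cells in every library. Arg1 Cxcl3 cells had 1149 CPM under PBS and 1420, 1647 and 2229 CPM on days 1, 3 and 7, and Nos2 Acod1 cells 2047 and 1445 CPM on days 1 and 3. Ly6c2 Plac8 cells had 1460, 755 and 852 CPM on days 1, 3 and 7. Cx3cr1 Fcrls Hpgd cells had 437, 489, 694 and 667 CPM, and the lowest were Cd163 Folr2 cells with 247, 367 and 447 CPM up to day 3. Highest and lowest gates had separate intervals in all 4 libraries, in CPM and in thinned shares of positive cells. Counting every cell that passes the Cd163 Folr2 gate, a later choice, gave 363, 270 and 499 CPM of Cd14 up to day 3.

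Tlr2 was at 596 CPM in Nos2 Acod1 cells on day 1 and again on day 3. Arg1 Cxcl3 cells had 213, 339, 582 and 247 CPM in the 4 libraries, Ly6c2 Plac8 cells 422, 333 and 274 CPM on days 1, 3 and 7, and Cx3cr1 Fcrls Hpgd cells 224, 241, 347 and 185 CPM. Cd163 Folr2 cells were again lowest, with 66.0, 133 and 176 CPM up to day 3. The PBS value rests on 15 UMIs in the 30 cells that passed this gate alone. Over all 619 PBS cells that pass it, a later choice, Tlr2 had 196 CPM, with 143 on day 1 and 194 on day 3. On day 7 the intervals of the highest and lowest gate met.

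The nucleic acid sensors were arranged otherwise. Tlr13 on day 3 was highest in Cd163 Folr2 cells at 86.6 CPM (66.7 to 110.6), against 31.5 CPM (17.2 to 52.8) in Nos2 Acod1 cells, where Tlr2, Cd14 and Clec4e stood high. On day 1 Tlr13 had 84.7 CPM in Cd163 Folr2 cells and 32.4 CPM in Ly6c2 Plac8 cells, again with separate intervals. Tlr7 on day 3 had 62.3 CPM in Cd163 Folr2, 53.4 in Ly6c2 Plac8 and 20.2 in Nos2 Acod1 cells, and the first and the last had separate intervals. For both genes the thinned shares of positive cells overlapped, so these orders rest on the CPM alone.

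Tlr4 ranged between 11.2 and 31.1 CPM over the gates on day 3, and its intervals overlapped in every library. Of 75 Tlr9 UMIs in macrophage-gated cells on day 3, 24 fell in Ly6c2 Plac8 cells, at 8.38 CPM (5.37 to 12.5), and 5 in Cx3cr1 Fcrls Hpgd cells, at 1.43 CPM. In CPM, Myd88 was highest in Ly6c2 Plac8 cells, with 90.8, 110.3 and 103.8 CPM on days 1, 3 and 7. On day 3 alone its highest and lowest gates were apart in CPM, with 67.6 CPM in Arg1 Cxcl3 cells. By thinned share of positive cells Myd88 was highest in Nos2 Acod1 cells on day 1 (19.2%) and Cd163 Folr2 cells on day 3 (23.2%). The thinned shares of Tlr9 and Myd88 overlapped between the highest and lowest gate in every library, so these orders rest on CPM alone. Over 8 members and 4 libraries, 16 of 32 pairs had separate CPM intervals between the highest and lowest gate, and 10 had separate thinned shares. The highest and lowest gates were picked by these same values. The same count was not made over all genes, so it does not show a trait of the sensors.

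**Figure D3:**
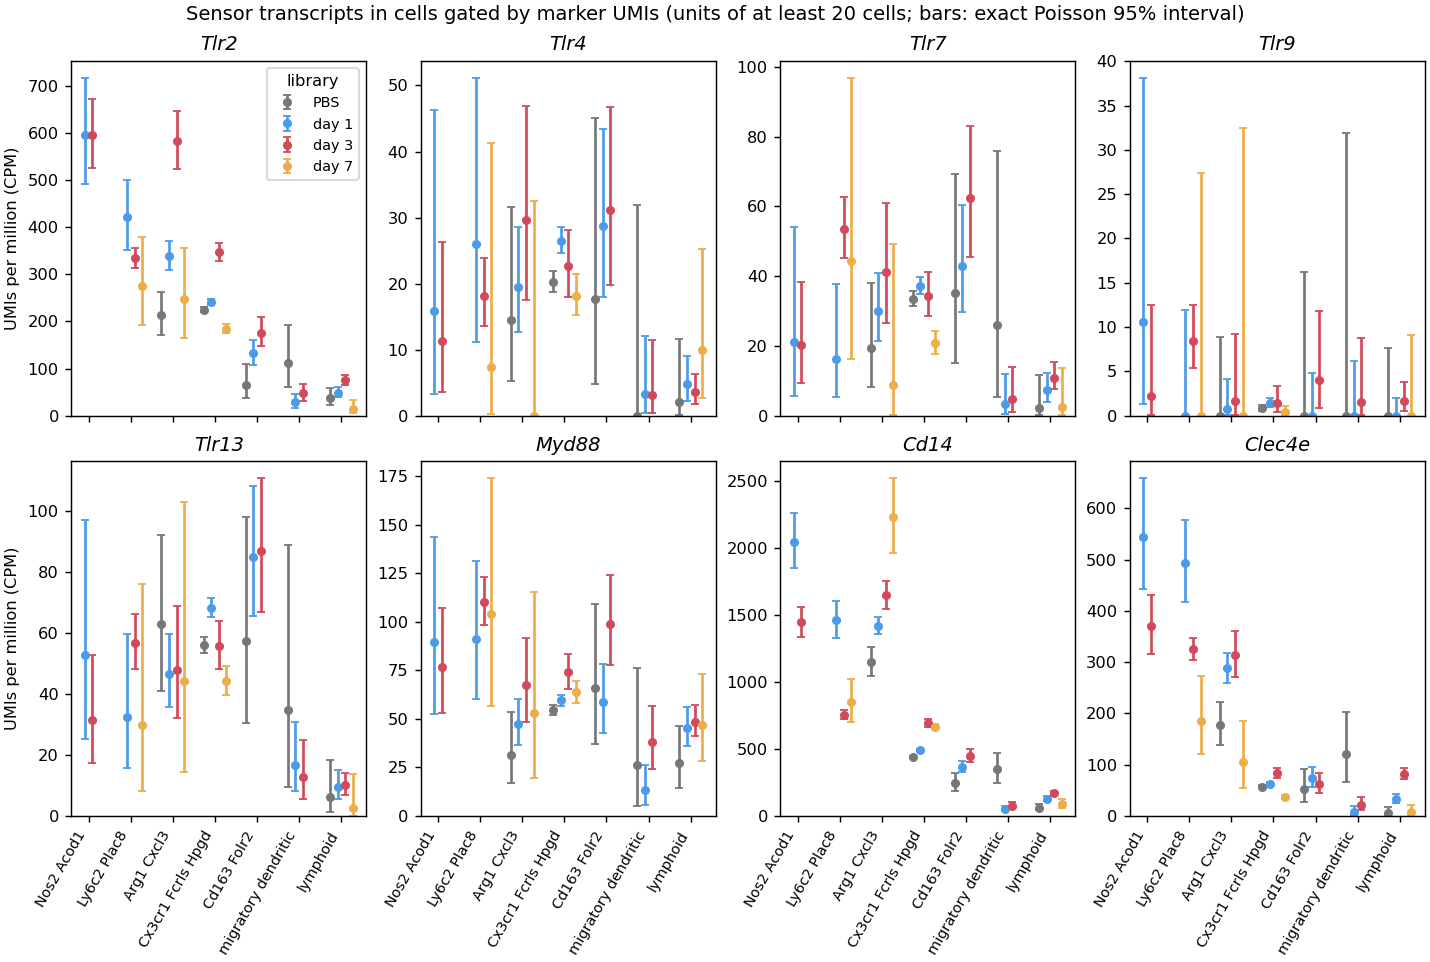
Level of each sensor gene in CPM (y axis from 0, its own scale per gene) in cells gated by marker UMIs (x axis), coloured by library from PBS to day 7, with exact Poisson 95% intervals, for units of at least 20 cells. Clec4e and Cd14 reach 543 and 2047 CPM in Nos2 Acod1 cells on day 1, while Tlr13 on day 3 is highest in Cd163 Folr2 cells at 86.6 CPM.

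Within gates the day 3 differences were smaller in some units and larger in others. The median log2 ratio of the members tested was 0.69 in all macrophage-gated cells and 0.49 in Cx3cr1 Fcrls Hpgd cells. It was 1.03 in Arg1 Cxcl3 cells, 0.82 in Cd163 Folr2 cells, 0.81 outside every subset gate and 0.78 in cells of several gates. In Cx3cr1 Fcrls Hpgd cells Clec4e had 83.3 CPM on day 3 and 57.3 CPM in the PBS library, a log2 ratio of 0.54 that did not pass, where all macrophage-gated cells gave 1.53. Cd14 and Tlr2 remained higher in these cells on day 3, at log2 ratios of 0.67 (0.60 to 0.73) and 0.63 (0.54 to 0.72), and were the 2 of 8 members called, where 9.45% of all genes were higher and 6.93% lower. On day 1 only Tlr9 was called, with 38 UMIs against 26 in the PBS library and a log2 ratio of 0.79 (0.04 to 1.57), beside 9.96% of all genes higher and 5.05% lower. On day 7 Cd14 was higher at 0.61, and Tlr7 and Clec4e were lower at -0.69 (-0.94 to -0.45) and -0.64 (-0.83 to -0.46), with 10.2% of all genes higher and 17.0% lower.

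In Arg1 Cxcl3 cells Clec4e was 1.63-fold its PBS level on day 1 and 1.77-fold on day 3, and Tlr2 1.59-fold and 2.73-fold. Myd88 was 2.15-fold on day 3 (1.13 to 4.37, 41 UMIs and 13 in PBS), and Cd14 1.94-fold on day 7. That made 2, 3 and 1 members higher of the 7, 7 and 4 tested on days 1, 3 and 7, where 8.91%, 12.4% and 10.8% of all genes were higher and 4.31%, 6.66% and 8.9% lower. None of the members was lower. These ratios leave out cells of several gates, unevenly between libraries. Of 175 PBS cells that pass the Arg1 Cxcl3 gate at all, 101 also pass the Cx3cr1 Fcrls Hpgd gate. On days 1, 3 and 7 these were 97 of 266, 12 of 135 and 41 of 67. Ratios with those cells counted were not computed.

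Cells outside every subset gate made up 55.9% of macrophage-gated cells on day 3. They held 54.0% of the Tlr2, 54.5% of the Cd14 and 47.8% of the Clec4e UMIs. Their median depth was 6034 UMIs, against 6512 in all macrophage-gated cells. All macrophage-gated cells had 354, 832 and 184 CPM of these genes, against 361, 857 and 166 CPM in cells outside every subset gate. In them 6 of 8 members were higher on day 3, namely Tlr2, Tlr4, Tlr7, Myd88, Cd14 and Clec4e, at log2 ratios of 1.11, 0.99, 0.95, 0.69, 0.68 and 0.71, with 15.3% of all genes higher and 14.0% lower. On day 1 Tlr4 and Clec4e were higher, at 0.73 and 0.71, with 12.5% of all genes higher and 6.05% lower. On day 7 none of the 7 tested was called, with 12.8% of all genes higher and 17.5% lower. In cells of several gates, 4 of 7 tested members were higher on day 3, led by Clec4e with 228 CPM on day 3 and 50.2 CPM in the PBS library, where 15.2% of all genes were higher and 14.9% lower. On day 1 none of the 7 was called there (6.27% of all genes higher, 4.29% lower), and on day 7 Cd14 alone was higher, at a log2 ratio of 1.00 (10.2% higher, 13.2% lower).

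The Cd163 Folr2 gate depends on how overlap is treated. In the 79 and 96 cells of days 1 and 3 and the 30 PBS cells that passed it alone, Tlr2, with 15 PBS UMIs, was called higher on both days at log2 ratios of 1.01 and 1.41, and Cd14 on day 3 at 0.86, 1 and 2 of the 7 members tested (all genes 7.45% and 13.9% higher, 6.2% and 11.5% lower). Of 619 PBS cells that pass the gate at all, 583 also pass the Cx3cr1 Fcrls Hpgd gate. Counting every cell that passes the gate, a choice added after seeing the data, gave Tlr2 values of 143 CPM on day 1 and 194 on day 3 against 196 CPM in the PBS library, with log2 ratios of -0.46 and -0.01 and no call. In that wider set Tlr7, Myd88 and Clec4e were higher on day 3, at 0.82, 0.73 and 0.90, where 14.1% of all genes were higher and 13.5% lower. On day 1 no member was called there, with 5.9% of all genes higher and 4.16% lower. Day ratios in the Ly6c2 Plac8 and Nos2 Acod1 gates were not computed, since their PBS units hold 16 and 5 cells.

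RNA from lysed cells enters droplets, so the sensors were also read in lymphoid-gated cells, those with at least 3 lymphoid UMIs and under 1% macrophage UMIs. These numbered 172, 354, 633 and 132, with median depths of 2178.5, 3870.5, 3765 and 2517.5 UMIs, against 6094, 8902.5, 6512 and 4995.5 UMIs in macrophage-gated cells. The complement gene C1qa, a macrophage product, stood there at 13.0%, 12.4%, 9.88% and 7.12% of its macrophage level. Cd14 stood at 13.3%, 22.1%, 20.9% and 12.5%, and Tlr2 at 17.5%, 20.7%, 21.2% and 8.08%. Clec4e stood at 9.80%, 33.1%, 44.9% (39.4 to 51.0%) and 14.5%, and Myd88 at 50.3%, 77.8%, 57.4% and 71.2%. Macrophage genes differed among themselves, since Cd68 stood at 22.6%, 16.6%, 22.3% and 10.0%, near Tlr2 and Cd14, and Csf1r at 14.6%, 16.7%, 17.0% and 7.72%. The intervals of Clec4e on days 1 and 3 and of Myd88 on days 1, 3 and 7 lay above those of all 7 macrophage genes read. These 7 also take part in the gate, whose limit of under 1% macrophage UMIs holds them down and does not bind the sensors. On day 7 the intervals of Clec4e and Tlr2 overlapped those of the macrophage genes. After thinning, a Clec4e UMI was found in 0%, 3.60%, 7.13% and 0% of 103, 333, 575 and 88 lymphoid-gated cells, and the zeros allow shares of up to 2.91% under PBS and 3.41% on day 7. The monocyte gene Chil3 likewise stood at 82.3% of its macrophage level on day 3. The part of free RNA in the members' values was not tested.

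**Figure D4:**
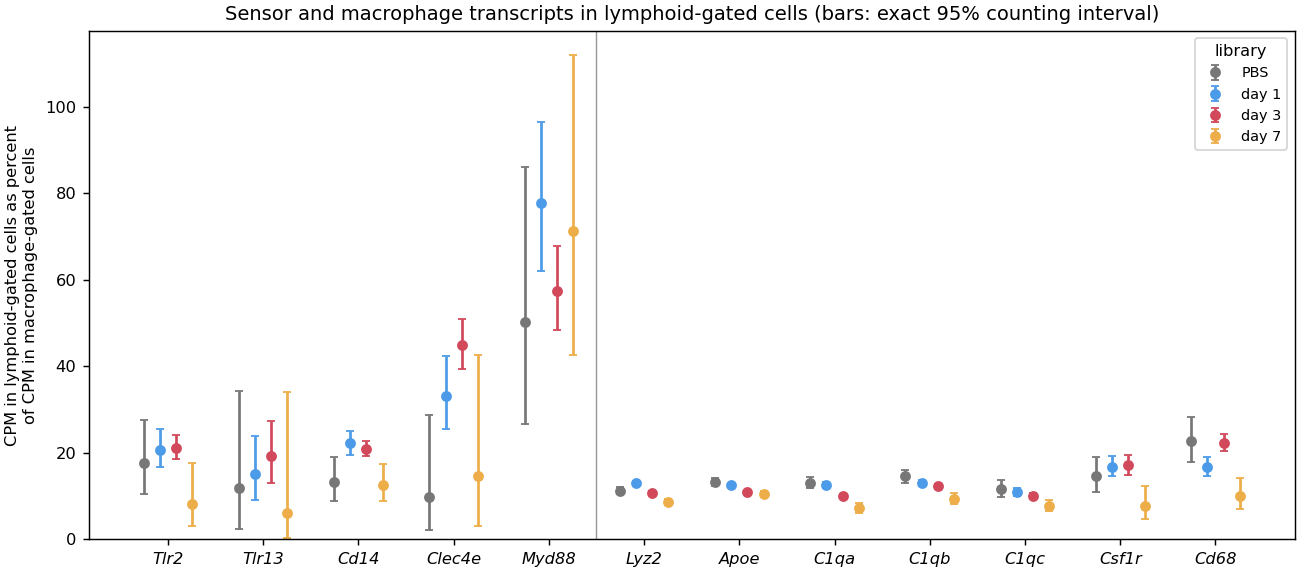
Level in lymphoid-gated cells as a percent of the level in macrophage-gated cells (y axis from 0) for 5 sensor genes and, right of the line, 7 macrophage genes, coloured by library from PBS to day 7, with exact 95% counting intervals. The macrophage genes lie between 7.12% (C1qa, day 7) and 22.6% (Cd68, PBS), while Clec4e reaches 44.9% on day 3 and Myd88 lies between 50.3% and 77.8%.

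In lymphoid-gated cells 2 of the 5 members tested were higher on day 1 (Cd14 and Clec4e, with 7.13% of all genes higher and 2.85% lower) and 4 of 6 on day 3 (Tlr2, Myd88, Cd14 and Clec4e, with 8.53% higher and 5.27% lower). Clec4e there had 257 UMIs on day 3 against 3 in the PBS library, a 13.2-fold ratio with an interval of 4.47 to 64.5. On day 7 none of 3 was called, with 13.7% of all genes higher and 10.6% lower.

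Cells of the migratory dendritic gate (Ccr7, Fscn1, Ccl22) numbered 94 on day 1, 99 on day 3 and 27 in the PBS library. In them 2 of the 2 members with enough UMIs were lower on day 1, Tlr2 and Cd14, and 3 of 4 on day 3, Tlr2, Cd14 and Clec4e. Of all genes 4.72% were higher and 6.92% lower on day 1, and 7.77% and 6.7% on day 3. Some of these cells also passed the macrophage gate, 17 on day 1, 6 on day 3 and 7 of the 27 PBS cells. Those 7 PBS cells held 37 of the 40 Cd14, 11 of the 13 Tlr2 and 13 of the 14 Clec4e UMIs of the PBS unit, so its level rests on them. Without the cells that passed both gates, likewise a later choice, no member was called. Cd14 then had log2 ratios of 0.18 (-1.53 to 2.55) on day 1 and 0.30 (-1.38 to 2.66) on day 3, with 3 PBS UMIs. The other members, except Myd88 on day 3, had under 20 UMIs. Of all genes 1.95% were then higher and 2.65% lower on day 1, and 4.96% and 3.39% on day 3. In the mast cell gate (Cpa3, Mcpt4, Cma1), with 60 cells on day 1 and 30 in the PBS library, only Cd14 had enough UMIs and was not called, where 4.41% of all genes were higher and 7.44% lower.

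Further genes of the same pathways, 72 in number, were counted in all kept cells. Of those with enough UMIs, 15 of 71 were higher and 0 lower on day 1, 35 of 69 higher and 4 lower on day 3, and 11 of 68 higher and 12 lower on day 7. The shares over all genes were those given above for all kept cells, 17.1% higher on day 1, 18.9% on day 3 and 19.9% on day 7, and 3.84%, 15.3% and 12.0% lower. The median log2 ratio of the pathway genes was 0.35, 0.59 and -0.04, beside 0.14, -0.04 and 0.02 over all genes. Within macrophage-gated cells the counts were 15 higher and 1 lower of 70, 33 and 4 of 69, and 11 and 10 of 67, where 12.3%, 15.0% and 11.9% of all genes were higher and 4.61%, 16.2% and 16.5% lower.

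Among other Toll-like receptors, Tlr8, an endosomal RNA sensor, had 7.52, 12.6, 6.04 and 1.23 CPM. It was higher on day 1 at a log2 ratio of 0.74 and lower on day 7 at -2.61 (19 UMIs and 382 in PBS). Tlr5, the flagellin receptor, was higher on day 3 at 0.74 and lower on day 7 at -1.23. In all 1, 3 and 0 of the 6 tested were higher and 0, 0 and 2 lower.

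Of 8 co-receptors and folding factors, 0, 3 and 4 were higher and 0, 2 and 2 lower on days 1, 3 and 7. Ly96, which encodes the lipopolysaccharide-binding partner of Tlr4, had 17.3, 23.2, 19.8 and 44.0 CPM and was higher on day 7, at 1.34. Ly86, the partner of the Tlr4 homologue Cd180, was also higher on day 7 at 1.22, and Cd180 itself on day 3 at 1.11. Hsp90b1, the chaperone of Toll-like receptors, was lower on day 3, at -0.73.

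Of 15 adaptors and kinases 1, 5 and 0 were higher and 0, 1 and 2 lower. Irak2, a kinase of the MyD88 complex, had 16.0, 27.5, 50.5 and 19.8 CPM and was higher on day 1 at 0.79 and on day 3 at 1.66. Ticam1, the adaptor of the route that does not use MyD88, was lower on day 7 at -0.96. Among 6 inhibitors, Tnfaip3, which removes ubiquitin in NF-kB signalling, was higher at 0.89 and 1.75 on days 1 and 3. Sigirr was higher at 0.91 on day 3 in all kept cells, but in macrophage-gated cells its ratio was -0.11. The list counted 1, 3 and 1 higher and 0 lower.

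Of 6 transcription factors 1, 4 and 2 were higher and none lower. Irf7, an interferon regulator used by endosomal receptors, had 116, 138, 840 and 277 CPM and log2 ratios of 2.86 on day 3 and 1.25 on day 7. Rel, an NF-kB subunit, was higher at 0.60 on day 1 and 1.42 on day 3.

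Of 11 other C-type lectins, 11, 9 and 9 had enough UMIs on days 1, 3 and 7. Among these 2, 2 and 0 were higher and 0, 1 and 1 lower. In macrophage-gated cells 2, 3 and 3 of the 10, 9 and 9 tested were higher and 0, 1 and 1 lower, beside the shares over all genes given above. Mrc1, the mannose receptor, had 726, 754, 242 and 317 CPM and was lower on days 3 and 7, at -1.59 and -1.20. Clec4a1 and Clec4a3 were higher on day 3, at 1.16 and 1.19. Clec4d and Clec4n, which like Clec4e signal through the Fc receptor gamma chain, had day 3 ratios of 0.42 and -0.02 and were not called, and are named here outside the naming rule, chosen after their values were seen. In C-type lectin signalling 1, 3 and 0 of 7 were higher and 0, 0 and 3 lower. Malt1, the protease of the Card9 complex, had 71.4, 140, 257 and 29.0 CPM, higher on days 1 and 3 at 0.97 and 1.85, and lower on day 7 at -1.30.

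Of 12 genes induced through these receptors, 8 were higher on day 1 and all 12 on day 3, with medians of 0.99 and 2.14. On day 7, 4 of 11 were higher and 2 lower. Ptgs2, which encodes cyclooxygenase 2, had 51.8, 156, 301 and 83.6 CPM. Nos2 and Acod1 had log2 ratios of 5.05 and 4.29 on day 3, and both also serve as gate markers. Il12b was higher on day 3 at 3.13, but on day 1 its ratio was 0.43 in all kept cells and -1.70, a lower call, in macrophage-gated cells. Il10 was lower on day 7 at -1.11.

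Markers of other cells also differed between the libraries in all kept cells. Ly6c2 and Plac8 of monocytes summed to 11.1, 33.9, 668 and 83.8 CPM, 5 T cell markers to 43.2, 162, 384 and 153 CPM, and 4 markers of NK cells and ILC1 to 17.3, 43.0, 180 and 93.1 CPM. The 3 migratory dendritic markers summed to 14.7, 65.8, 180 and 25.7 CPM. These lists were highest on day 3. Day 7 stood out for 3 stromal genes, collagens and decorin, with 51.7, 121, 55.2 and 537 CPM, and for 2 haemoglobin genes with 2.19, 2.00, 0.280 and 119 CPM. Day 1 was highest for the 3 mast cell markers, with 101, 288, 141 and 0.325 CPM, for 4 neutrophil markers, with 17.4, 55.4, 43.7 and 22.2 CPM, and for 3 endothelial markers, with 30.9 CPM on day 1 and 6.08 CPM in the PBS library. On day 7 Cpa3 and Mcpt4 of the mast cell list and S100a9 of the neutrophil list were at 0, and every other marker of these lists was detected in each library. Their part in the pathway counts was not tested.

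**Figure D5:**
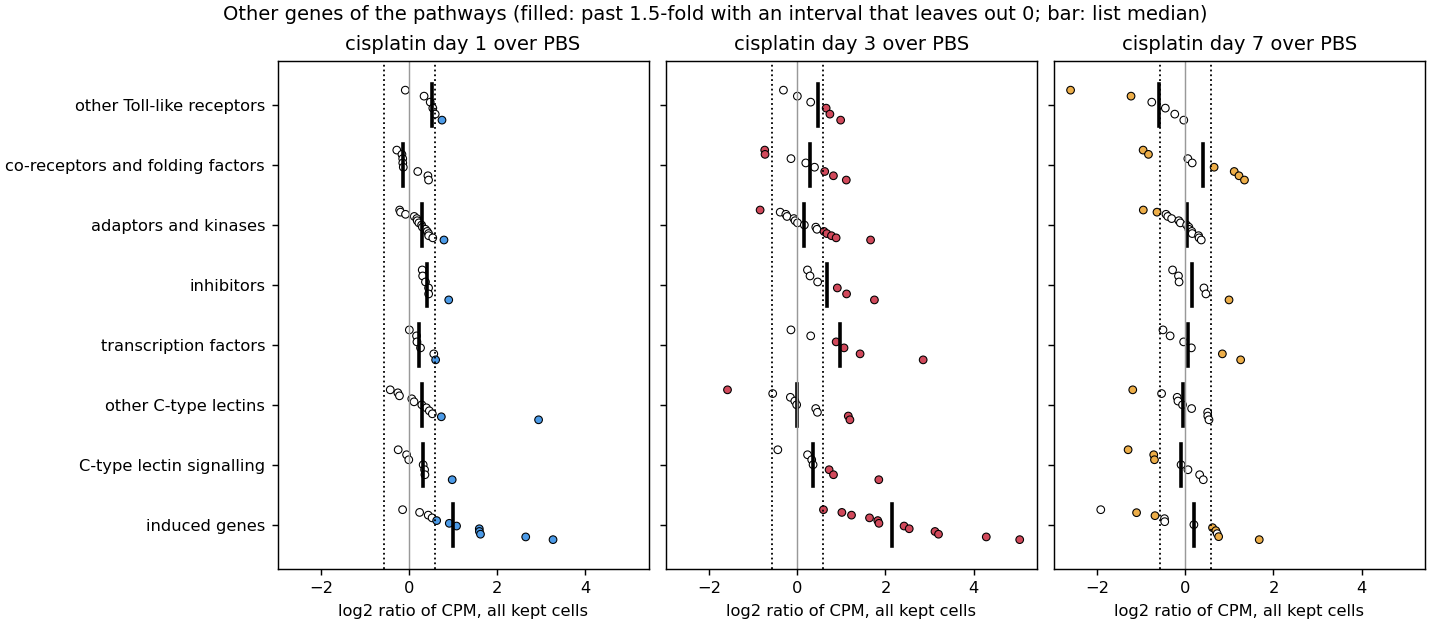
Log2 ratio of CPM to PBS in all kept cells (x axis) for each further pathway gene with at least 20 UMIs over both libraries, by list (rows) and day after cisplatin (panels, days 1, 3 and 7). Filled points passed 1.5-fold (dotted lines) with an interval that leaves out 0, bars are list medians, and the induced genes lie highest on day 3 with a median of 2.14.

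Over 29 units of library and gate with at least 20 cells, the genes most like each sensor were ranked by Pearson's r of log2(CPM + 10). These values are descriptions, since units share libraries, depth and, through the gates, marker genes. Among members, Tlr2 and Cd14 were most alike at 0.91, followed by Tlr2 and Clec4e at 0.87 and Cd14 and Clec4e at 0.82. Tlr7 and Tlr13 had 0.75, and Tlr4 had 0.32 with Cd14 and 0.70 with Tlr7. Outside the set, Clec4e was most like Ptgs2 (0.93), the transcription factor Ets2 (0.92) and the inflammasome sensor Nlrp3 (0.92). Cd14 was most like Tmem189 (0.96), the angiogenic factor Vegfa (0.94) and the urokinase receptor Plaur (0.93). Tlr2 was most like Snx18, Trps1 and Cybb, a subunit of the phagocyte oxidase, at 0.93, 0.92 and 0.92. Myd88 was most like Clec4a3, Max and the chemokine Ccl4, at 0.94, 0.92 and 0.92. Tlr13 followed Cpt1a, Plbd2 and Ang at 0.92, 0.89 and 0.89, Tlr4 followed Wdfy3, Atp7a and BC037034 at 0.92, 0.87 and 0.86, and Tlr7 followed Cd300ld, Cdk14 and Laptm5 at 0.87, 0.85 and 0.84. Tlr9, with 187 UMIs over all units, gave Prm1, Chic1 and Ucp1 at 0.86, 0.78 and 0.78, where a correlation in counts this sparse is no finding.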

How the data were processed

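The files deposited by the authors hold whole UMI counts, one for each gene in each barcode, made with Cell Ranger 3.1.0 on mm10, per the submitters' processing notes, which also name Seurat 3.1.2 with no stated role. Total counts per library ranged between 16153484 and 82493626. A barcode was used if it showed 500 genes or more and no more than 10% mitochondrial UMIs. Scrublet (run in scanpy 1.11.5) marked 0 cells at its automatic threshold and so has not worked, and the highest scores were removed instead at 0.8% per 1000 barcodes, 650, 643, 249 and 66 cells. Counts were summed per library and gate and scaled to CPM, with exact Poisson 95% intervals, Clopper-Pearson intervals for shares and exact conditional binomial intervals for ratios, in Python 3.11.15 with scipy 1.17.1. A count of 0 was set to a floor of 3 counts in ratios, and a share at 0 is given with the limit 3 counts allow. PCR duplicates were collapsed by UMI, but intervals cover counting error only. The ratio script was tested on simulated data. Factors from edgeR 4.0.16 (TMM) and DESeq2 1.42.0 (median ratio) served as alternative scalings, and other alternatives changed filters, doublet removal, gates, limits and depth. The members, gates and lists were chosen with earlier results of these data known. Named pathway genes are at most the 4 with the largest log2 ratios of each list among those called in a comparison, and gene likeness used genes with at least 50 UMIs. Positions are from GENCODE vM21. Sequences are from RefSeq. A check of the sort against innate lymphoid markers is not reported here.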

Additional observations from a re-analysis of the deposited data

Results flagged for a closer look

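In the migratory dendritic gate (Ccr7, Fscn1, Ccl22), with 94 cells on day 1, 99 on day 3 and 27 in the PBS library, members were called lower that were higher in at least 1 macrophage gate, and these calls rest on 7 PBS cells that also passed the macrophage gate. Tlr2 was lower, with 28.4 CPM on day 1 and 112.6 CPM in the PBS library, a log2 ratio of -1.99. On day 3 its ratio was -1.25. Cd14 on day 3 had 76.0 CPM, against 346 CPM in the PBS library, a log2 ratio of -2.19, and Clec4e on day 3 had 22.2 CPM against 121 CPM, a ratio of -2.45. The difference between gates was not tested. The PBS values rest on 13 Tlr2, 40 Cd14 and 14 Clec4e UMIs, of which those 7 cells held 11, 37 and 13. Without the cells that passed both gates, a choice made after seeing the data, no member was called. Tlr2 then had 2 PBS UMIs and stayed under 20 UMIs on both days. Its log2 ratios were -0.61 (-2.84 to 2.62) on day 1 and -0.16 (-2.26 to 3.01) on day 3. Cd14 had 52.2 CPM on day 3 in 93 cells and 42.3 CPM, 3 UMIs, in 20 PBS cells, a log2 ratio of 0.30 (-1.38 to 2.66). Intervals this wide cannot show a difference or its absence.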

How the results depend on the processing

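No paired analysis was possible because each group has 1 library. Of 142 counts recomputed under alternatives, 121 stayed within 1.5 times the main count. Members higher on day 1 in all kept cells (2) came to 0 without cell filters, 1 with TMM, 0 with median-ratio factors, 0 at a 2-fold limit and 1 after thinning, where 17.2%, 14.3%, 13.3%, 9.74% and 12.9% of all genes were higher. In macrophage-gated cells (2) they came to 0 with TMM, 0 with median-ratio factors, 0 at 2-fold, 1 after thinning and 0 with the macrophage gate at 2%, where 9.81%, 10.1%, 6.74%, 9.18% and 10.6% of all genes were higher. Members higher on day 3 came to 5 (from 3) at a mitochondrial limit of 5% in all kept cells (18.6% of all genes higher), and to 2 (from 5) at 2-fold in macrophage-gated cells (8.55%), while day 7 came to 0 (from 1) at 2-fold there (6.3%). Members lower on day 7 in all kept cells (0) came to 1 with doublets kept, 2 with TMM and 1 with median-ratio factors, where 12.1%, 16.3% and 14.9% of all genes were lower. At 2-fold the other pathway genes gave 7 higher on day 1 (9.74% of all genes), 21 higher and 1 lower on day 3 (11.7% and 7.76%), and 5 higher and 5 lower on day 7 (12.9% and 3.63%). The median-ratio factors shift day 1 ratios in all kept cells by -0.13, and TMM shifts those of macrophage-gated cells by -0.10. A stricter limit counts fewer genes by construction; the cause of the other differences was not tested.

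Of 456 member log2 ratios under alternatives, 384 stayed inside their counting interval, 68 moved and 4 reversed. A further 6 alternatives gave no ratio. The 4 are Cd14 in the migratory dendritic gate without macrophage-gated cells (0.18 on day 1, 0.30 on day 3) and Tlr2 in the Cd163 Folr2 gate with overlap counted (-0.46 on day 1, -0.015 on day 3). Those Cd14 ratios rest on 3 PBS UMIs. Depth limits Tlr9 most, with 7 UMIs on day 7.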

Other observations

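In the mast cell gate sensor transcripts were few. Cd14 had 105 CPM (68.7 to 154) on day 1 and 137 CPM (72.7 to 234) in the PBS library, against 129 and 60.5 CPM (40.5 to 86.8 under PBS) in lymphoid-gated cells. Tlr2 had 60.7 and 42.0 CPM, against 48.9 and 37.5 CPM. The intervals of the 2 gates overlapped for both genes in both libraries.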
